A study of Mus musculus with 6 samples.

Results

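Cytochrome P450 genes code for haem enzymes that insert oxygen into drugs, solvents, fatty acids, sterols, vitamin D and retinoic acid. They were followed here in tumours of H22, a mouse hepatocellular carcinoma cell line. Members were taken by name, as every listed gene whose symbol is Cyp followed by a family number, a subfamily letter and a gene number. This gave 62 of the 20482 genes in the table, in 13 families, of which family 2 held 30 and family 4 held 14. Cyp51, the sterol demethylase of cholesterol synthesis, has no such name and is not a member.

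RNA was sequenced from 3 lenvatinib-resistant tumours (LR1, LR2 and LR3) and 3 lenvatinib-sensitive tumours (NR1, NR2 and NR3). All 6 grew under the skin of wild-type male C57BL/6 mice that were 6 weeks old at implantation. Lenvatinib blocks several receptor tyrosine kinases, those of VEGF and FGF among them. LR mice were injected with it into the peritoneum, at 100 mg/kg per day on 2 days a week and in 2 cycles. NR mice were controls. The labels conflict on the controls, since one field calls all 6 tumours untreated and the protocol has the controls receive lenvatinib while naming only its solvent. Exposure to the drug and resistance to it cannot be told apart in these groups. The model is a line grown under the skin, so each tumour sample can also hold host fat, muscle, vessels and immune cells. Per the series design the 3 tumours of a group are biological replicates.

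P450 enzymes take electrons from P450 oxidoreductase in the endoplasmic reticulum or from ferredoxin in mitochondria. Enzymes of families 1 to 3 mostly oxidise foreign compounds, family 4 mostly hydroxylates fatty acids and eicosanoids, and families 7, 27, 39 and 46 act on cholesterol and oxysterols. Hepatocytes carry the largest P450 repertoire of the body, and several members, Cyp2e1 and Cyp2f2 among them, are also found outside the liver. Tumour cells of liver origin commonly lose much of this repertoire.

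Depth was close to even, with 15995403 to 17545098 counts per tumour, and 3 counts corresponded to 0.171 to 0.188 CPM, the count scaled to a common total. Of the 62 members, 37 passed the filter on low counts and were tested. The other 25 had totals of 2 to 65 counts over the 6 tumours and no value above 1.31 CPM. Across all 14392 genes tested, edgeR's quasi-likelihood test called 0 genes (0%) at an adjusted p under 0.05, with 1404 genes (9.76%) at an unadjusted p under 0.05. DESeq2 called 117 of 14249 genes (0.821%), none of them a P450 gene, and limma-voom called 0. RNA of fat cells varied widely over the tumours. Adipoq, which codes for the fat cell hormone adiponectin, stood at 2.62, 89.3 and 57.1 CPM in LR tumours, against 197, 193 and 55.3 CPM in NR tumours. Throughout, 3 values of a group are given in the order of the replicate numbers. Alb, the albumin gene and a hepatocyte marker, stood at 121, 112 and 120.4 CPM in LR tumours, against 167, 198 and 186 CPM in NR tumours. No hepatocyte marker of the list of 20 was at 3 counts or fewer over the tumours, but this is a low bar and several stood at a few CPM only. These levels cannot check the label of a liver cancer.

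Promoters are shown for 4 members that stand for the 2 patterns described later. Cyp2e1 and Cyp2f2 varied with Adipoq, and Cyp3a11 and Cyp2c29 had all LR values under all NR values, as Alb had. Each sequence holds the 250 bases before the gene's start in the RefSeq promoter table (GRCm38.p6), read 5′ to 3′ on the gene's strand. The start in that table lies inside the gene model of GENCODE, by 46 to 110 bases in Cyp2f2, Cyp2e1 and Cyp3a11 and by 17680 bases in Cyp2c29, so the Cyp2c29 stretch lies within that gene model and not before it. The regions are chr7:140763569-140763818 on the plus strand for Cyp2e1, chr7:27119705-27119954 on the plus strand for Cyp2f2, chr5:145879855-145880104 on the minus strand for Cyp3a11 and chr19:39286835-39287084 on the plus strand for Cyp2c29. Capitals mark TATAAA, the TATA box, and AGGTCA, a half-site of nuclear receptors, on either strand.
Cyp2e1: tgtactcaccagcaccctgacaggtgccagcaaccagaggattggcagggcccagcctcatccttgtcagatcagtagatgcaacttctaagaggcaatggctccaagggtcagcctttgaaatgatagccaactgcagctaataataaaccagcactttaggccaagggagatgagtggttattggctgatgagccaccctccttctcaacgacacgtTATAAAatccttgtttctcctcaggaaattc
Cyp2f2: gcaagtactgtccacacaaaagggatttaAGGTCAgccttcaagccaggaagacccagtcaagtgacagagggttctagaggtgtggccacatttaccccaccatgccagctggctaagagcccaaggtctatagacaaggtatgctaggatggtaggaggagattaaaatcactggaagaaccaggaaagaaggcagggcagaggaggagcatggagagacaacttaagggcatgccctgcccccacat
Cyp3a11: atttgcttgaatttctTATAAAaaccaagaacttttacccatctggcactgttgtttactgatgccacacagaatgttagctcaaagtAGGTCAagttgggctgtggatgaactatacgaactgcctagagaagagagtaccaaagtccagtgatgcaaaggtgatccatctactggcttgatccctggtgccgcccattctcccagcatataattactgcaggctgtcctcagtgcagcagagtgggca
Cyp2c29: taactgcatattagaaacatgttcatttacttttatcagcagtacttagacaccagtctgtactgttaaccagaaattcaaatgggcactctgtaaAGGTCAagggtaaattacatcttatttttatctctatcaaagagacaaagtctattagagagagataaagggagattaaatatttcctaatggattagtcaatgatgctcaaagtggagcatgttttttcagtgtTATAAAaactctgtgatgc

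In the Cyp2e1 promoter, TATAAA began 31 bases before the start, and in the Cyp2c29 promoter 19 bases before it. The Cyp3a11 sequence held TATAAA farther out, 234 bases before the start, and AGGTCA 162 bases before it. AGGTCA began 154 bases before the RefSeq start in Cyp2c29 and 221 bases before it in Cyp2f2, which held no TATAAA. The promoter table matched 50 of the 62 members. On either strand, 22 of these 50 (44.0%) held TATAAA, against 12.4% of all 32817 promoters of this length. AGGTCA was in 7 of the 50 (14%), against 14.03% of all promoters. GTTAAT, a half-site of the liver factor HNF1, was in 6 (12.0%), against 6.44%. GCGTG, the core bound by the aryl hydrocarbon receptor, was in 9 (18.0%), against 28.1%. The 4 motifs were searched separately, and a match is a description of the letters only.

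Levels per length placed a few members far above the rest. In FPKM, fragments scaled by gene length and by the tumour's total, Cyp2e1 averaged 33.5 ± 25.1 in LR tumours and 94.5 ± 68.5 in NR tumours (SD, n = 3 each). Next came Cyp20a1, with a mean FPKM over the 6 tumours of 27.4, and then Cyp3a13 with 11.3, Cyp2f2 with 8.79, Cyp2c55 with 7.60 and Cyp1b1 with 7.16. The spread of Cyp2e1 within each group was nearly as large as its mean, and in LR1 and NR3 its FPKM was under that of Cyp20a1. The summed CPM of all 62 members was 245, 418 and 361 in LR tumours, against 631, 680.1 and 293 in NR tumours. Cyp2e1 alone made up 3.72%, 22.8% and 20.6% of that sum in LR tumours, against 44.1%, 35.0% and 9.71% in NR tumours. Without Cyp2e1 the sum was 236, 323 and 286 CPM in LR tumours, against 353, 442 and 265 CPM in NR tumours. With and without it, the lowest NR tumour, NR3, lay within the range of the LR tumours.

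Most tested members had a lower mean level in LR tumours, but none passed the test after adjustment over all genes. The log2 fold change, LR minus NR, was below 0 for 29 of 37 members (78.4%), against 52.7% of all genes tested, and its median was -0.62 over the members and -0.02 over all genes. The smallest adjusted p of a member by edgeR's quasi-likelihood test was 0.510. At an unadjusted p under 0.05, 5 of 37 members (13.5%) were on the lower side, against 5.73% of all genes, and 0 were on the higher side, against 4.02%. These 5 were Cyp3a11, Cyp3a25, Cyp2c29, Cyp2c50 and Cyp4f18. Leaving out 1 tumour moved both shares, in fits that tested 37 to 41 members. The number was 1 without LR1 (2.5%, against 2.14% of all genes), 2 without LR2 (4.88%, against 3.5%) and 4 without LR3 (10.0%, against 3.11%). It was 2 without NR1 (5.13%, against 5.09%), 2 without NR2 (5.41%, against 3.15%) and 7 without NR3 (17.9%, against 11.4%). The 3 LR values all lay under the 3 NR values in 7 of the 37 tested members (18.9%), against 7.54% of all genes, and all above them in 2 tested members (5.41%), against 8.41%. Cyp3a25, Cyp2c29 and Cyp2c50 are among both the 5 and the 7. They had 2 to 12 counts per LR tumour, against 15 to 26 per NR tumour. These genes passed the filter on low counts through their NR values, so their place among the tested members depends on the group where they are high. The same filter was applied to all genes. In bulk tumours, fewer cells of a type and less RNA per cell cannot be told apart.

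**Figure D1:**
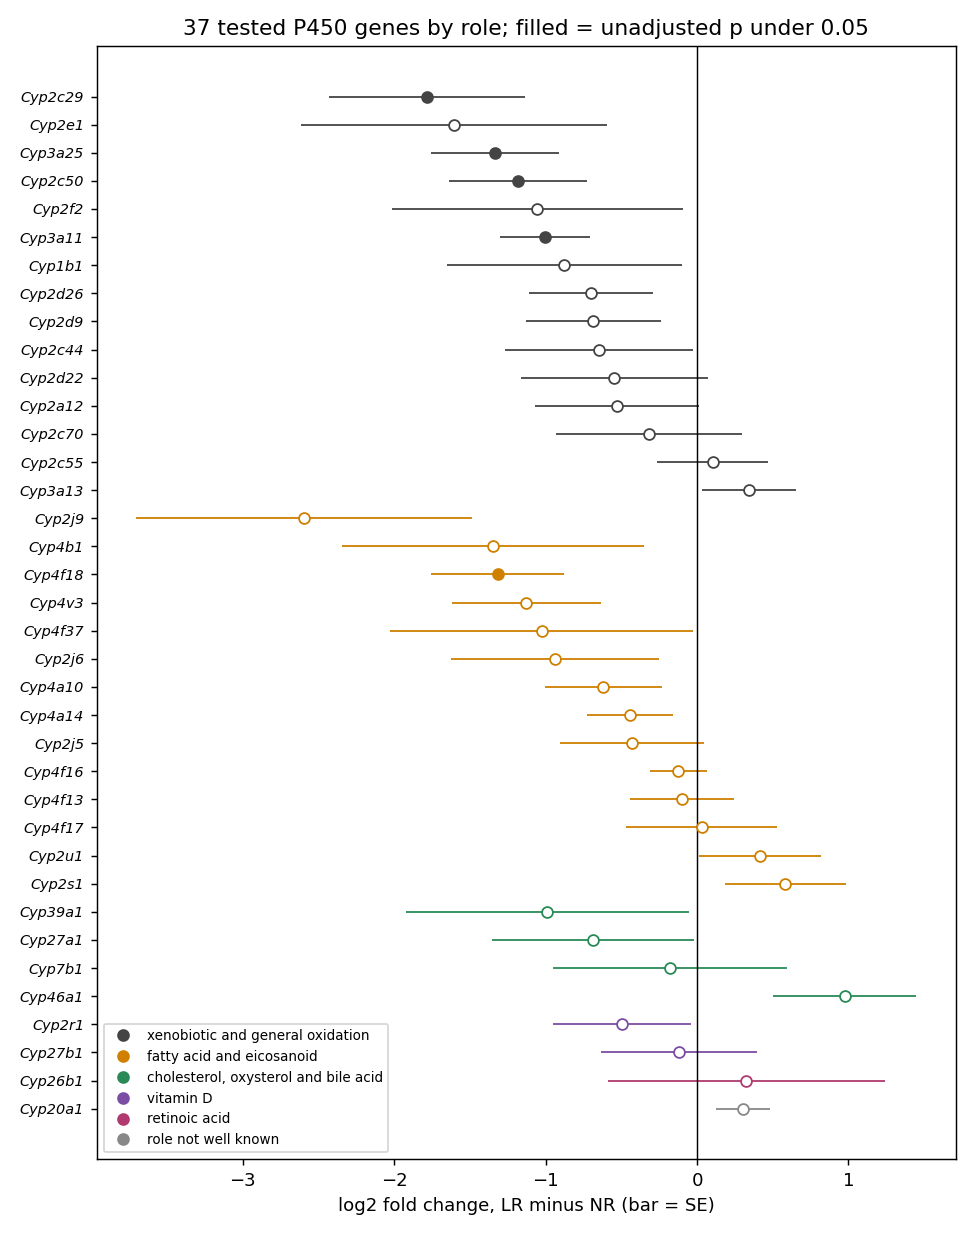
Log2 fold change, LR minus NR, of the 37 tested P450 genes (points) with its standard error (bars), grouped and coloured by role, with filled points at an unadjusted p under 0.05. 29 of 37 points lie left of 0, and the 5 filled ones are all left of it.

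Among the enzymes of foreign compounds (families 1, 3 and most of 2), 13 of 15 tested members were below 0, with a median log2 fold change of -0.70. Their summed level was 93.1, 214 and 197 CPM in LR tumours, against 431, 421 and 133 CPM in NR tumours, with NR3 again under LR2 and LR3. Cyp2e1, which oxidises ethanol and small solvents, was measured at 9.09, 95.5 and 74.3 CPM in LR tumours, against 278, 238 and 28.4 CPM in NR tumours. LR1 was the lowest and NR1 the highest tumour, NR3 lay between LR1 and LR3, and the log2 fold change was -1.61 ± 1.01 (SE). Cyp2f2, known for the activation of naphthalene in mouse airway cells, had 1.25, 17.1 and 21.2 CPM in LR tumours, against 45.7, 27.2 and 9.25 CPM in NR tumours. It too was lowest in LR1 and highest in NR1, and its log2 fold change of -1.054 ± 0.961 was close to its standard error. Cyp1b1, an oxidase of oestrogens and polycyclic hydrocarbons found in stromal cells, had 7.85, 34.6 and 35.7 CPM in LR tumours, against 22.9, 98.6 and 21.99 CPM in NR tumours. NR2 stood apart at the top, and without it the log2 fold change of -0.88 became 0.21. The 12 B and plasma cell markers, which summed to 219.5, 271 and 259 CPM in LR tumours, against 339, 6263 and 201 CPM in NR tumours, also peaked in NR2, and their part in the value of NR2 was not tested.

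The 3 members of family 3 differed in the sign of their fold change. Cyp3a11, the main drug-oxidising Cyp3a enzyme of mouse liver (chr5:145854426-145879964 in the GENCODE annotation of GRCm38), had 4.58, 3.22 and 3.39 CPM in LR tumours, against 7.25, 6.74 and 8.45 CPM in NR tumours. Its groups did not overlap, and its log2 fold change of -1.003 ± 0.297 had the smallest unadjusted p of the members, 0.0127 (adjusted p 0.510, edgeR). Cyp3a25, a neighbour at chr5:145977194-146009618, stood far lower at 0.476, 0.418 and 0.416 CPM in LR tumours, against 1.05, 1.13 and 1.14 CPM in NR tumours, or 7 to 8 counts per LR tumour against 17 to 20 per NR tumour. The groups did not overlap, with a log2 fold change of -1.33 ± 0.42. Of its transcript sequence, 26.8% of the stretches of 50 bases occur in other genes, mostly in Cyp3a59, so its reads may be split between them. Cyp3a13, a Cyp3a enzyme also found in gut, had a fold change of the other sign, with 46.3, 35.2 and 30.9 CPM in LR tumours, against 39.98, 18.5 and 30.2 CPM in NR tumours. Only NR2 was clearly apart, at the low end, and the log2 fold change was 0.34 ± 0.31.

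Of the tested Cyp2c genes, which in liver make epoxides of arachidonic acid and oxidise drugs, 2 had groups that did not overlap, with LR lower. This trait was shared by 7.54% of all genes tested. In the other tested Cyp2c genes, Cyp2c44, Cyp2c55 and Cyp2c70, the groups overlapped. Cyp2c29 had 0.416, 0.119 and 0.713 CPM in LR tumours, against 1.61, 1.55 and 1.2 CPM in NR tumours, with a log2 fold change of -1.79 ± 0.65 and an unadjusted p of 0.0295 by edgeR. Cyp2c50 had 0.476, 0.478 and 0.535 CPM in LR tumours, against 1.05, 1.49 and 0.857 CPM in NR tumours, with a log2 fold change of -1.18 ± 0.45. Both are read from few molecules, and 18.3% of the stretches of 50 bases of Cyp2c50 occur in other genes, mostly Cyp2c37. Cyp2c55, a form of gut and inducible liver, stood at a higher level of 13.6, 14.9 and 18.7 CPM in LR tumours, against 17.5, 7.64 and 18.7 CPM in NR tumours, and its groups overlapped with a log2 fold change of 0.10 ± 0.37. Cyp2c37, under the filter, had 3, 0 and 3 counts in LR tumours, against 7, 5 and 7 counts in NR tumours. Cyp2c67 had 1, 2 and 2 counts in LR tumours, against 8, 4 and 7 counts in NR tumours, and it was not tested either. In both of these genes the LR values also lay under the NR values, but both were chosen after their values were seen. In Cyp2c38, Cyp2c54, Cyp2c65 and Cyp2c68, also under the filter, the groups overlapped. Of the stretches of 50 bases, 30.1% in Cyp2c37 and 52.8% in Cyp2c67 occur in other genes, mostly Cyp2c50 and Cyp2c40. The Cyp2d genes Cyp2d9 and Cyp2d26 also had 3 LR values under the 3 NR values, at log2 fold changes of -0.68 ± 0.45 and -0.70 ± 0.41. Their levels were low, with means of 1.01 and 0.93 CPM in LR tumours, and 21.8% of the stretches of 50 bases of Cyp2d9 occur in other genes. Cyp2d22 overlapped, with 1.96, 5.73 and 4.10 CPM in LR tumours, against 6.94, 8.23 and 2.06 CPM in NR tumours. The classical induced forms were at the edge of detection. Cyp1a1, the target of the aryl hydrocarbon receptor, had 0, 5 and 4 counts in LR tumours, against 0, 4 and 0 counts in NR tumours, and Cyp2b10, the target of the receptor CAR, had 2 counts over all 6.

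Among the fatty acid and eicosanoid enzymes, 11 of 14 tested members were below 0, with a median log2 fold change of -0.53. Their summed level was 63.96, 86.4 and 75.2 CPM in LR tumours, against 104, 167 and 81.9 CPM in NR tumours. LR3 lay close under NR3, and the groups overlapped through LR2. Cyp4f18, which hydroxylates leukotriene B4 in mouse neutrophils, had 5.88, 6.75 and 11.4 CPM in LR tumours, against 18.8, 30.1 and 11.02 CPM in NR tumours. LR3 was just above NR3, so the groups overlapped, and the log2 fold change was -1.32 ± 0.44 with an unadjusted p of 0.0215 and an adjusted p of 0.510 by edgeR. The 11 markers of neutrophils and mast cells summed to 42.7, 115 and 74.5 CPM in LR tumours, against 73.1, 131 and 23.1 CPM in NR tumours, with overlap. This sum mixes both cell types. Of the tested neutrophil markers, Ly6g had 2.08, 1.25 and 2.20 CPM in LR tumours, against 2.48, 2.98 and 2.74 CPM in NR tumours, without overlap. In S100a8, S100a9, Cxcr2 and Retnlg the groups overlapped. The 14 markers of T and natural killer cells summed to 13.3, 18.4 and 46.4 CPM in LR tumours, against 77.9, 526 and 39.7 CPM in NR tumours, with NR2 far above the others. NR2 was also the highest tumour for Cyp4f18, but much less far from NR1, and without NR2 the log2 fold change of Cyp4f18 was -0.90. The part of these cell types in the result was not tested. Cyp4v3, the counterpart of a human fatty acid hydroxylase gene mutated in a crystalline eye disease, had 6.24, 15.9 and 11.9 CPM in LR tumours, against 23.4, 38.4 and 12.7 CPM in NR tumours. Its log2 fold change was -1.13 ± 0.49, with NR3 under LR2. Cyp4f16 was among the steadiest members, with 20.3, 23.8 and 18.3 CPM in LR tumours, against 20.5, 24.1 and 23.5 CPM in NR tumours and a log2 fold change of -0.12 ± 0.19. It shares 17.4% of its stretches of 50 bases with other genes, mostly Cyp4f37, whose level was only 0, 0.298 and 0.773 CPM in LR tumours, against 0.744, 0.776 and 0.685 CPM in NR tumours.

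The enzymes of fatty acid oxidation that the receptor PPAR alpha induces in liver were low. Cyp4a14 had 5.29, 4.54 and 3.69 CPM in LR tumours, against 5.95, 6.21 and 6.23 CPM in NR tumours, with no overlap and a log2 fold change of -0.44 ± 0.29. Cyp4a10 had 3.63, 2.09 and 3.39 CPM in LR tumours, against 3.47, 4.53 and 5.998 CPM in NR tumours, with a log2 fold change of -0.62 ± 0.39 and 29.8% of its stretches of 50 bases shared, mostly with Cyp4a32. The epoxygenase gene Cyp2j9 had 0, 0.358 and 0.594 CPM in LR tumours, against 3.16, 2.21 and 0.514 CPM in NR tumours. It was not counted in LR1, NR3 lay between LR2 and LR3, and its log2 fold change of -2.60 ± 1.11 was the most negative of the members, with an unadjusted p of 0.0535 by edgeR. On the other side, Cyp2s1 had 3.39, 2.51 and 1.78 CPM in LR tumours, against 1.55, 2.03 and 1.54 CPM in NR tumours. Cyp2u1 had 3.03, 1.91 and 2.91 CPM in LR tumours, against 1.55, 2.63 and 1.71 CPM in NR tumours. Both code for hydroxylases found outside the liver, their groups overlapped, and their log2 fold changes were 0.58 ± 0.40 and 0.41 ± 0.40.

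Of the 6 sterol enzymes, 4 were tested and 3 were below 0, with a median log2 fold change of -0.43. Cyp27a1, the mitochondrial sterol hydroxylase of bile acid synthesis, had 3.03, 11.8 and 8.798 CPM in LR tumours, against 12.2, 21.1 and 4.68 CPM in NR tumours. Cyp7b1, the oxysterol hydroxylase of the alternative bile acid route, had 1.31, 7.104 and 4.87 CPM in LR tumours, against 8.18, 5.31 and 1.54 CPM in NR tumours. Cyp39a1, another oxysterol hydroxylase, had 0.238, 2.51 and 0.357 CPM in LR tumours, against 2.17, 2.98 and 1.03 CPM in NR tumours. In all 3 genes LR1 was the lowest LR tumour and NR3 the lowest NR tumour, the groups overlapped, and the log2 fold changes were -0.69 ± 0.67, -0.18 ± 0.77 and -0.99 ± 0.94. Cyp46a1, the cholesterol hydroxylase best known from neurons, had a fold change of the other sign. Its level was 1.13, 1.13 and 0.892 CPM in LR tumours, against 0.372, 0.477 and 0.743 CPM in NR tumours, the groups did not overlap, and the log2 fold change of 0.97 ± 0.47 had the smallest unadjusted p on the higher side, 0.0812 by edgeR. Cyp7a1, the rate-limiting enzyme of classical bile acid synthesis, had only 5, 2 and 6 counts in LR tumours, against 6, 2 and 1 counts in NR tumours. Cyp8b1, which sets the share of cholic acid, had 1, 0 and 4 counts in LR tumours, against 7, 6 and 1 counts in NR tumours.

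Both vitamin D enzymes were low. Cyp27b1, which makes the active hormone, had 0.476, 1.01 and 0.476 CPM in LR tumours, against 0.682, 0.656 and 0.7997 CPM in NR tumours, with a log2 fold change of -0.12 ± 0.51. Cyp2r1, which carries out the first activating step, had 1.37, 1.19 and 0.594 CPM in LR tumours, against 1.36, 1.49 and 1.599 CPM in NR tumours, with overlap and a log2 fold change of -0.49 ± 0.46. Cyp26b1, which breaks down retinoic acid, had 3.45, 23.3 and 3.92 CPM in LR tumours, against 7.19, 14.7 and 2.63 CPM in NR tumours. LR2 and NR2 stood above the other tumours, and the log2 fold change of 0.33 ± 0.91 turned to -1.14 without LR2 and to -0.09 without NR3. Cyp20a1, an orphan enzyme with no well-known substrate, had 75.8, 69.9 and 66.6 CPM in LR tumours, against 62.4, 44.3 and 65.2 CPM in NR tumours. Its groups did not overlap, though LR3 and NR3 lay close, and its log2 fold change was 0.30 ± 0.18. The steroid hormone enzymes Cyp11a1 and Cyp17a1, of the adrenal gland and gonads, had 47 and 5 counts over all tumours and were not tested.

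**Figure D2:**
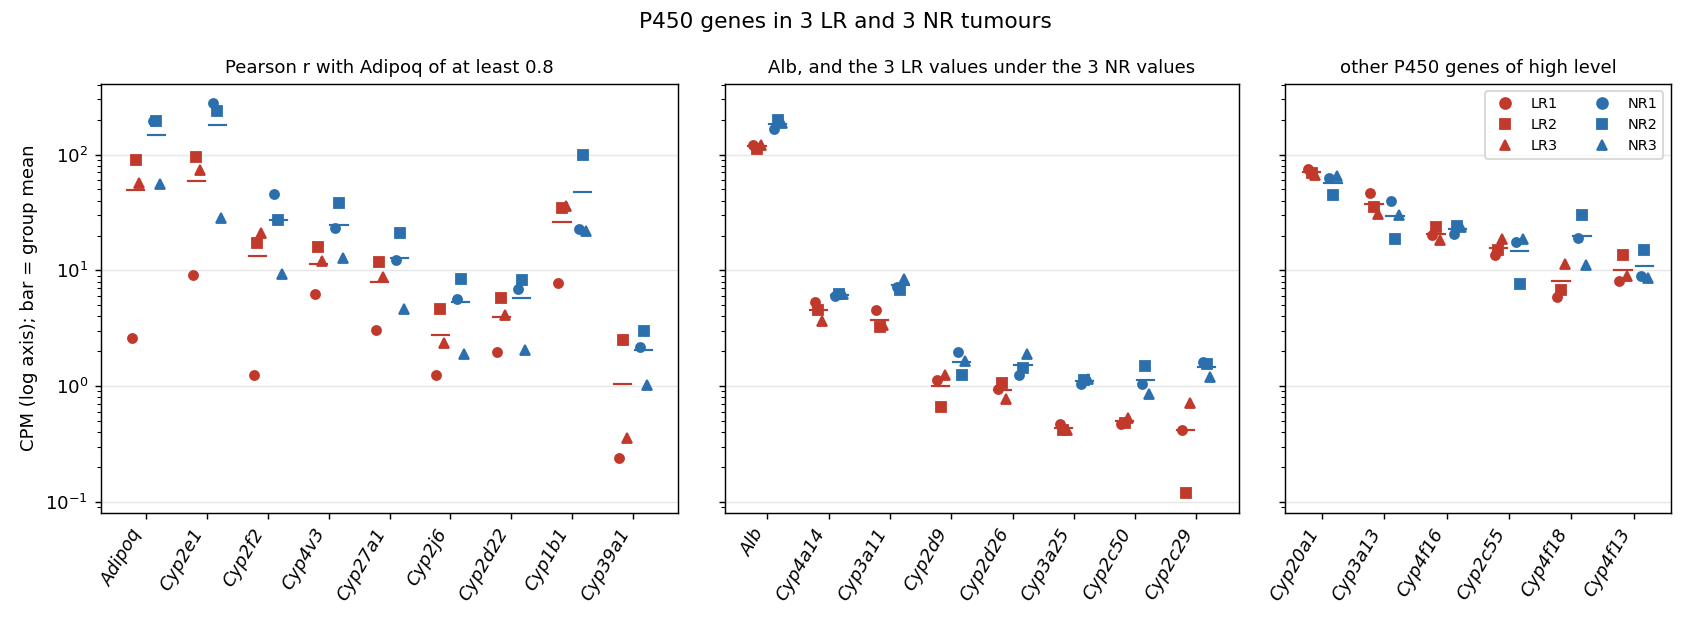
CPM on a log axis of P450 genes in each of the 3 LR and 3 NR tumours (points, with bars at group means), with Adipoq beside genes with a Pearson r of at least 0.8 with it (left; a gene with a value of 0 in any tumour is left out), Alb beside the 7 tested members whose LR values all lie under the NR values (middle), and other genes of high level (right). In the left panel LR1 is the lowest point of every gene. In the middle panel the 3 LR points lie under the 3 NR points, the trait by which its members were chosen.

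The second question was which members follow fat cell RNA over the tumours. In log2 CPM over the 6 tumours, 10 of 37 members (27.03%) had a Pearson r of at least 0.8 with Adipoq, against 1423 of 14392 genes (9.89%), and the median r was 0.50 over the members and near 0 over all genes. On log2(FPKM + 1) the number was 6 of 37 (16.2%), against 5.98% of all genes. The 10 were Cyp2f2, Cyp2e1, Cyp2j9, Cyp4v3, Cyp4f37, Cyp27a1, Cyp2j6, Cyp39a1, Cyp2d22 and Cyp1b1. Pearson r was 0.93 for Cyp2e1, with p = 0.00139 (two-sided, exact, from all 720 pairings of the tumours, which can give no smaller p) and 0.169 after adjustment over all genes. Spearman's rho was 1.00, so that both genes put the 6 tumours in the same order, with an exact permutation p of 0.00278. For Cyp2f2 r was 0.97, with an exact permutation p of 0.00694 and 0.193 after adjustment, and rho was 0.94. For Cyp4v3 r was 0.90, with an exact permutation p of 0.00556 and 0.174 after adjustment, and rho was 0.89. No gene of the 14391 correlated with Adipoq had an adjusted p under 0.05 by this exact permutation test, and 9 of 37 members (24.3%) had an unadjusted one under 0.05, against 13.3% of the 14391 genes. Over the 10 members the adjusted p ran between 0.169 and 0.419 (exact permutation test).

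LR1 stood apart in Adipoq, and its weight differed between these genes. Without LR1, r was 0.94 for Cyp2e1, 0.93 for Cyp2j6, 0.92 for Cyp4v3, 0.88 for Cyp2j9 and 0.86 for Cyp2d22. It was 0.82 for Cyp27a1, 0.82 for Cyp2f2 and 0.77 for Cyp39a1. For Cyp4f37 it came to 0.17 and for Cyp1b1 to 0.44, so for these 2 genes and for Cyp39a1 r was under 0.8 without that tumour. Without the 2 tumours farthest from the median of Adipoq, LR1 and NR1, r was 0.90 for Cyp2e1, 0.98 for Cyp4v3, 0.97 for Cyp2j6, 0.91 for Cyp27a1 and 0.70 for Cyp2f2. It was 0.86 for Cyp2d22, 0.81 for Cyp2j9, 0.79 for Cyp39a1, 0.93 for Cyp1b1 and 0.03 for Cyp4f37, each over 4 tumours. Within each group the order was the same for many members: LR1 was the lowest LR tumour and NR3 the lowest NR tumour in 16 of 37 members (43.2%), against 24.7% of all genes.

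**Figure D3:**
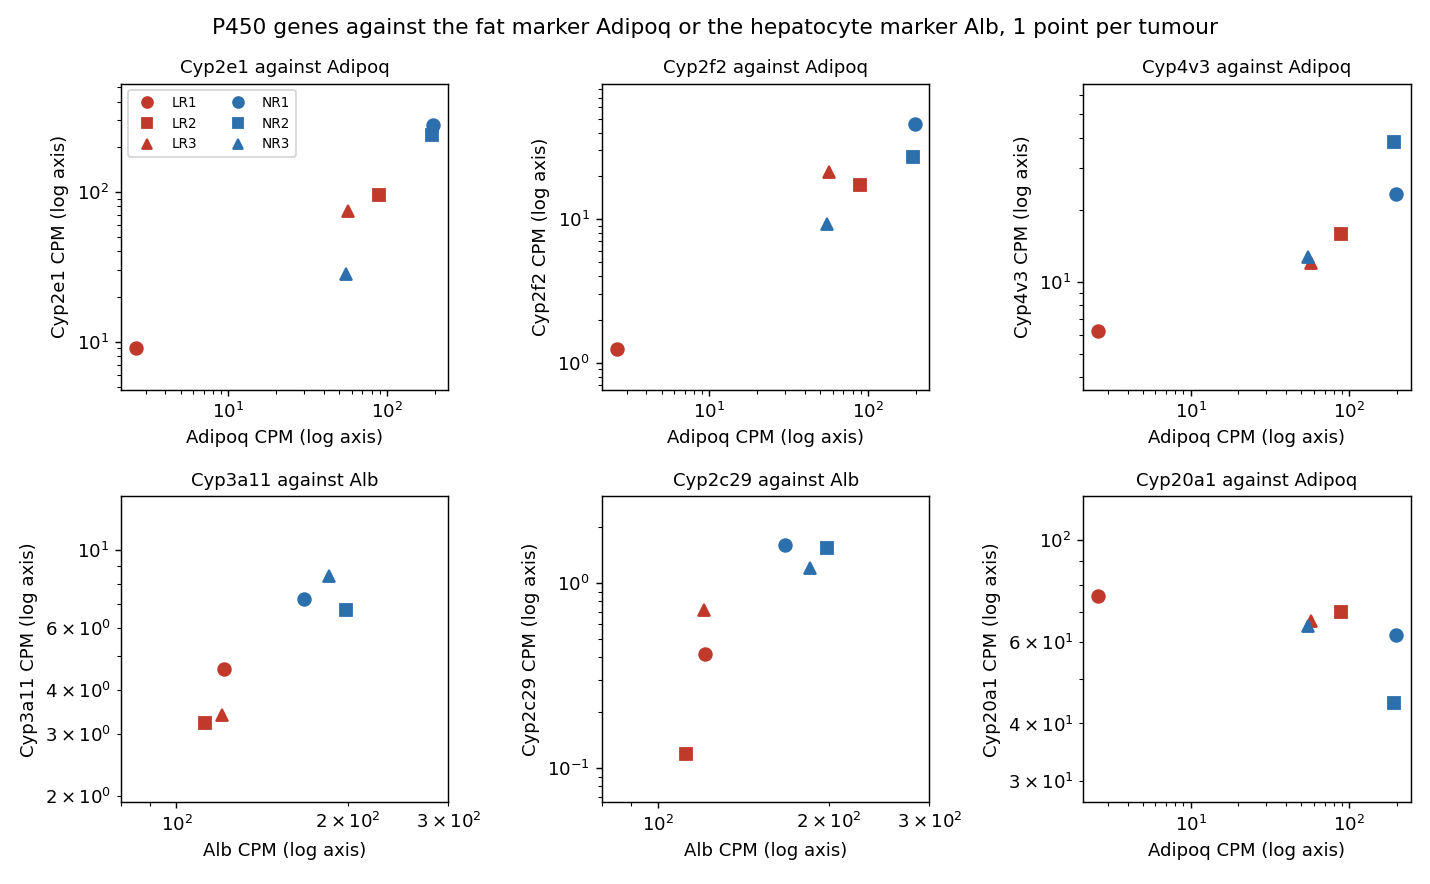
CPM of 4 P450 genes against Adipoq and of 2 against Alb, on log axes, with 1 point per tumour. Cyp2e1, Cyp2f2 and Cyp4v3 run upward with Adipoq, with LR1 lowest and NR1 and NR2 highest in Adipoq, Cyp3a11 and Cyp2c29 separate the 3 LR from the 3 NR tumours along Alb, and Cyp20a1 does not run upward with Adipoq.

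The whole list of fat cell markers moved with Adipoq. All 19 tested markers of the list of 20 had r of at least 0.8 with it, Adipoq itself included, and their summed level was 235, 2477 and 1749 CPM in LR tumours, against 6793, 5898 and 1645 CPM in NR tumours. All 19 had a log2 fold change below 0, against 52.7% of all genes, with a median of -1.63. On the lower side 4 had an unadjusted p under 0.05 by edgeR, against 5.73% of all genes. Pnpla2, a lipase of fat droplets, had a log2 fold change of -1.17 ± 0.41, and Lipe, the hormone-sensitive lipase, of -1.49 ± 0.54. Counted against Adipoq within each tumour, Cyp2e1 came to 348, 107 and 129.97 reads per 100 of Adipoq in LR tumours, against 141, 123.4 and 51.4 in NR tumours. Fabp4, a fat cell marker, came to 1232, 427 and 464 reads per 100 of Adipoq in LR tumours, against 409, 386 and 457 in NR tumours. In LR1, where Adipoq had 44 counts, both ratios were highest, and in NR3 the ratio of Cyp2e1 was lowest. Cyp4v3 came to 239, 17.8 and 20.9 reads per 100 of Adipoq in LR tumours, against 11.9, 19.9 and 23.0 in NR tumours, again with LR1 highest.

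Another set of members was picked for LR values that all lay under the NR values. Alb had this trait too, as did 7.54% of all genes tested, so the likeness to Alb follows from the choice. In Alb the 3 LR tumours lay close together and under the 3 NR tumours, so the 6 points form 2 clusters and no correlation with it was read. The 7 tested members whose LR values all lay under their NR values were Cyp3a11, Cyp3a25, Cyp2c29, Cyp2c50, Cyp2d9, Cyp2d26 and Cyp4a14. With Adipoq the same genes had r of only 0.28, 0.50, 0.41, 0.65, 0.20, 0.36 and 0.16 in that order. The reads of Cyp3a11 per 100 of Alb were 3.77, 2.88 and 2.81 in LR tumours, against 4.34, 3.40 and 4.56 in NR tumours. Cyp4a14 came to 4.36, 4.05 and 3.06 reads per 100 of Alb in LR tumours, against 3.56, 3.13 and 3.36 in NR tumours. The groups overlapped in both ratios.

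Of the 20 hepatocyte markers, 19 had a log2 fold change below 0, against 52.7% of all genes, with a median of -0.38. On the lower side 2 had an unadjusted p under 0.05 by edgeR, against 5.73% of all genes. These were Alb and Apob, a carrier protein of lipoproteins, at -0.64 ± 0.11 and -0.82 ± 0.24. The summed level was 244, 225 and 245 CPM in LR tumours, against 304, 366 and 325 CPM in NR tumours, without overlap. Alb alone made up 121, 112 and 120.4 CPM of the sum in LR tumours, against 167, 198 and 186 CPM in NR tumours. Other markers hardly differed and their groups overlapped, such as Apoa1, Fga and F2 with log2 fold changes of -0.04, -0.05 and 0.10. The part of hepatocyte RNA in the values of the 7 members, chosen for LR values under the NR values, was not tested. In Cyp3a13 and Cyp2c55 the groups overlapped.

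**Figure D4:**
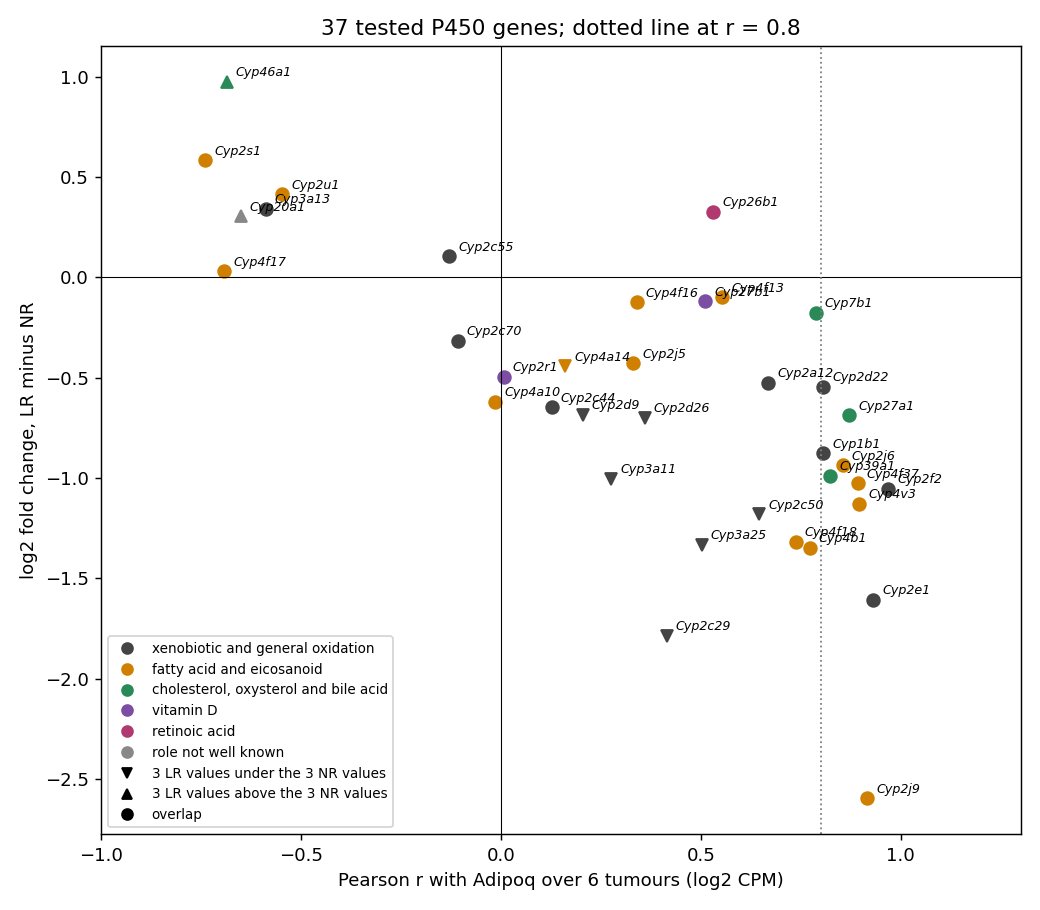
Log2 fold change, LR minus NR, against Pearson r with Adipoq over 6 tumours (log2 CPM) for the 37 tested P450 genes, coloured by role, with triangles where the groups did not overlap and a dotted line at r = 0.8. The 10 genes right of the line are circles below 0, and the 7 downward triangles lie left of it.

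With log2 CPM of Adipoq as a covariate beside the group, a fit added after the values had been seen, the fold changes of the members spread evenly around 0. Now 19 of 37 were below 0, with a median of -0.09, 11 members that were below 0 without the covariate were above it, and Cyp4f17 was the other way round. The log2 fold change of Cyp2e1 became 0.09, that of Cyp2f2 0.52, that of Cyp27a1 0.32 and that of Cyp7b1 1.01. Cyp3a11 and Cyp3a25 were at -1.27 and -1.43, farther from 0 than without the covariate. They were the only 2 members at an unadjusted p under 0.05, both lower, against 1.17% of all genes, and none was higher, against 3.18%. Cyp2c29 came to -1.79, Cyp4f18 to -0.86 and Cyp4v3 to -0.43. The fit leaves few degrees of freedom, and Adipoq itself had a log2 fold change of -1.58 ± 1.06, so covariate and group are partly the same contrast.

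**Figure D5:**
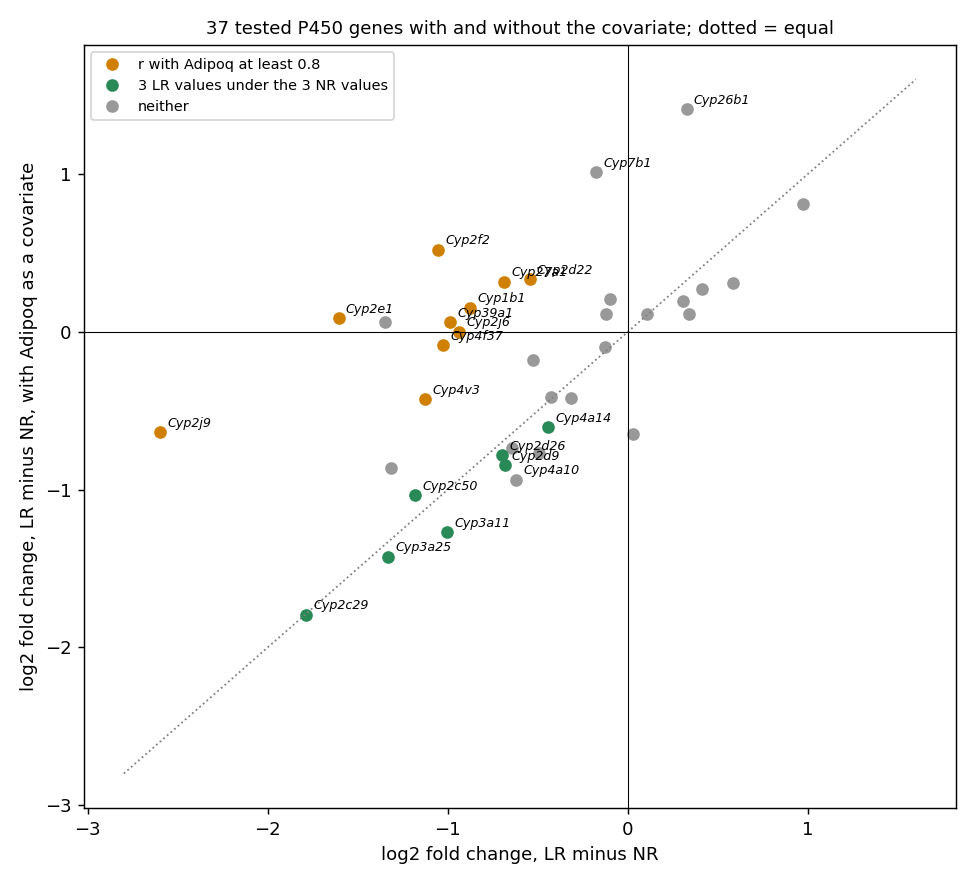
Log2 fold change, LR minus NR, of the 37 tested P450 genes with Adipoq as a covariate (vertical) against that without it (horizontal), with the dotted line at equal values. Genes with r of at least 0.8 with Adipoq lie above the line, and the 7 genes whose LR values all lie under the NR values lie close to it. The first set was chosen by its r with the covariate, so its place above the line partly follows from that choice.

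The partners of the P450 enzymes had fold changes of both signs. Of 10 tested electron donors and binding partners, 7 had a log2 fold change above 0 and 3 below it, where 52.7% of all genes were below 0. Their median was 0.21, and 1 had an unadjusted p under 0.05 by edgeR on the higher side, against 4.02% of all genes. The summed level of these partners was 1254, 1173 and 1164 CPM in LR tumours, against 1183, 916 and 1153 CPM in NR tumours. Por, the oxidoreductase that serves all microsomal members, had 207, 202 and 176 CPM in LR tumours, against 246, 155 and 197 CPM in NR tumours and a log2 fold change of -0.03 ± 0.18. Fdx1, the mitochondrial ferredoxin, had 13.7, 16.5 and 14.98 CPM in LR tumours, against 8.31, 8.83 and 12 CPM in NR tumours, with no overlap and an unadjusted p of 0.0358 by edgeR. Cyp51 had 57.4, 65.7 and 82.8 CPM in LR tumours, against 54.1, 53.3 and 43.1 CPM in NR tumours, also without overlap, and a log2 fold change of 0.45 ± 0.18. Of the 13 genes of haem synthesis and breakdown, 8 were above 0 and 5 below it, with a median of 0.12. Alas1, the first enzyme of haem synthesis outside red cells, had 36.2, 32.6 and 47.8 CPM in LR tumours, against 60.1, 72.7 and 44.5 CPM in NR tumours, with LR3 above NR3 and a log2 fold change of -0.60 ± 0.24.

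Receptors that switch P450 genes on in liver had fold changes of both signs where they were tested. Of the 20 listed xenobiotic and lipid receptors, 14 passed the filter. Nr1i2, Nr1i3 (CAR), Ppara (PPAR alpha) and Nr1h4 were among those that did not. Of the 14 tested, 8 were below 0, against 52.7% of all genes. Of those 8, 3 had an unadjusted p under 0.05 by edgeR, against 5.73% of all genes on the lower side. Rxrg, a retinoid X receptor, had 0, 0.478 and 0.297 CPM in LR tumours, against 2.23, 3.16 and 1.09 CPM in NR tumours, and its groups did not overlap. Nr1h3, the oxysterol receptor LXR alpha, had 2.67, 7.46 and 7.97 CPM in LR tumours, against 16.2, 26.4 and 7.03 CPM in NR tumours, with overlap. Of the 14 tested receptors, 4 had r of at least 0.8 with Adipoq, against 9.89% of all genes. Of 6 tested genes of the aryl hydrocarbon receptor axis, 4 were below 0 and none had an unadjusted p under 0.05.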

How the data were processed

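The authors deposited read counts per gene, whole numbers with no normalization, and FPKM, which they scaled by gene length and total count, for the same 20482 genes in 6 tumours. Libraries were made from TRIzol RNA with a Vazyme kit, per the labels' protocols. HISAT2, StringTie and edgeR are listed, without versions, in the submitters' processing notes. Not given in the sources used here are the build, the annotation, the strand setting and how reads of several genes were counted, so reads of near-identical genes, and of overlapping or antisense genes, may be split or pooled.

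Counts were filtered with filterByExpr, scaled by TMM and tested with edgeR 4.0.16 (quasi-likelihood F test, R 4.3.3), LR against NR, over all 14392 genes passing, with Benjamini-Hochberg adjustment over all of them. The standard error is the log2 fold change divided by the square root of F. CPM are TMM-scaled. Correlations were taken on log2 CPM (prior count 2) with an exact permutation test over 720 pairings, adjusted over all genes. The plan had set that adjustment over the members, which is not reported because they were chosen with results known. Alternatives were DESeq2 1.42.0, limma 3.58.1 on counts (voom) and on FPKM, other scalings and filters, a replicate block, and leaving out each tumour.

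The members and gene lists were chosen with earlier results of these data known. Genes named with values in every tumour were those with an unadjusted p under 0.05, the 5 per direction with the smallest p, the 2 of highest mean CPM per family and the 6 with the highest r with Adipoq. Any other member named was chosen after its values were seen. Of the other lists, at most 2 genes per direction with an unadjusted p under 0.05 were named. Adipoq, Alb, Por and Fabp4 were named as well. Apoa1, Fga, F2 and the receptors that were not tested were named after their values were seen. The replicate numbers share no stated litter or batch. The deviations of tumours with the same number correlated at 0.05, 0.31 and -0.16, so the numbers were not taken as pairs. No 2 tumours agreed within sampling noise, as the lowest chi-square per gene between 2 tumours was 38.5. All 62 identifiers were found in the GENCODE annotation of GRCm38, from which coordinates come, and 20 members (7 of the 37 tested) share over 10% of their stretches of 50 bases with other genes. The test was checked on simulated counts.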

Additional observations from a re-analysis of the deposited data

How the results depend on the processing

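No member passed an adjusted p of 0.05 under any alternative, the smallest being 0.146, and 21 of the 37 tested members kept 1 direction throughout. Over all genes DESeq2 called 117, and the number at an unadjusted p under 0.05 ran from 631 to 2666 when 1 tumour was left out (631 without LR1, 920 without LR2, 834 without LR3, 934 without NR2 and 2666 without NR3, against 1404). The 5 members at an unadjusted p under 0.05 on the lower side became 3 with a filter of CPM of at least 1, 2 with Adipoq as a covariate and 1 to 7 with a tumour left out. Both fits on log2 FPKM had 1 on the higher side, Cyp46a1. With the replicate number as a block, 2 members were on the lower side, Cyp3a11 and Cyp4v3, and 1120 genes in all, and the log2 fold change of Cyp4f17 was -0.043. It was -0.059 with limma-voom. Members with r of at least 0.8 with Adipoq numbered 6 on log2(FPKM + 1), against 10 on log2 CPM. With Alb in place of Adipoq the tumours form 2 clusters, and no r was read.

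With the covariate, 19 members were below 0, and the sign turned for Cyp2e1 (0.088), Cyp2f2 (0.52), Cyp1b1 (0.15), Cyp27a1 (0.32), Cyp4b1 (0.060), Cyp4f13 (0.21), Cyp7b1 (1.01), Cyp2d22 (0.33), Cyp2j6 (0.0001), Cyp39a1 (0.062), Cyp27b1 (0.11) and Cyp4f17 (-0.65). With 1 tumour left out the sign turned for some members, whose log2 fold changes ran over these ranges: Cyp2c55 -0.20 to 0.32, Cyp1b1 -1.21 to 0.21, Cyp4b1 -1.85 to 0.12, Cyp4f13 -0.36 to 0.21, Cyp7b1 -0.70 to 0.39, Cyp4f17 -0.47 to 0.34, Cyp26b1 -1.14 to 1.06, Cyp2c44 -0.96 to 0.14, Cyp2c70 -0.69 to 0.30 and Cyp27b1 -0.57 to 0.066. The log2 ratio of the summed retinoic acid enzymes ran from -1.17 without LR2 to 1.02. The cause of these changes was not tested. Members under about 2 CPM rest on few counts. The standard errors given come from the edgeR fit over the tumours and not from counting error alone.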

Other observations

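Other oxidising and conjugating enzymes had fold changes of both signs, and 52.7% of all genes tested were below 0. Of 14 tested flavin oxygenases and carboxylesterases, 9 had a log2 fold change below 0, with a median of -1.15, and none had an unadjusted p under 0.05. Of the 14, 6 had r of at least 0.8 with Adipoq, against 9.89% of all genes. Fmo1, a flavin monooxygenase, had 1.49, 12.2 and 9.75 CPM in LR tumours, against 42.3, 55.7 and 5.94 CPM in NR tumours. Ces1d, a carboxylesterase of fat and liver, had 1.49, 19.3 and 18.4 CPM in LR tumours, against 71.6, 84.8 and 8.68 CPM in NR tumours. Both were chosen after their values were seen, and in both LR1 was the lowest tumour and NR3 lay between LR1 and LR3. Of 19 tested conjugating enzymes, 11 were below 0, and Mgst3, a microsomal glutathione transferase, had 52.9, 49.97 and 44.2 CPM in LR tumours, against 32.5, 23.4 and 31.6 CPM in NR tumours, without overlap and above in LR tumours (log2 fold change 0.75 ± 0.18).

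Of 14 tested epoxide and eicosanoid enzymes 8 were below 0, of 10 tested genes of retinoic acid handling 5, and of 13 tested genes of the steroid and bile acid pathway 7. Aldh1a2, which makes retinoic acid, had 2.73, 6.09 and 6.96 CPM in LR tumours, against 10.7, 12.8 and 12.1 CPM in NR tumours, without overlap (log2 fold change -1.17 ± 0.39). Gpr183, the receptor of an oxysterol that Cyp7b1 helps to make, had 2.08, 1.73 and 1.96 CPM in LR tumours, against 3.41, 27.4 and 1.599 CPM in NR tumours, with NR2 far above the others. The 12 endothelial markers summed to 192, 315 and 296 CPM in LR tumours, against 446, 632 and 265 CPM in NR tumours, and 6 of them had r of at least 0.8 with Adipoq, against 9.89% of all genes. The 13 fibroblast markers summed to 2129.5, 6904 and 5330.3 CPM in LR tumours, against 4259, 3509 and 1863 CPM in NR tumours, with LR2 and LR3 highest, and 2 of them had such an r. The 13 macrophage and monocyte markers summed to 1102, 3190.1 and 2328 CPM in LR tumours, against 2325, 3012 and 1397 CPM in NR tumours, and 5 of them had such an r. The 14 skeletal muscle markers summed to 325, 111 and 7.07 CPM in LR tumours, against 1629.9, 16.5 and 3.08 CPM in NR tumours, and none had such an r. The part of these cell types in the P450 values was not tested.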
